A study of Mus musculus with 7 samples.

Results

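MicroRNA host genes are genes whose transcript contains the precursor of 1 or more microRNAs. The host genes described here are *Mir124-2hg*, *Mir124a-1hg*, *Mir9-3hg*, *Mir99ahg*, *Mir17hg* and *Mir22hg*, which were picked by name with earlier results of these data known. They are 6 of the 55335 genes in the count files and 6 of the 10 genes that the Gencode annotation of GRCm38 names in the Mir...hg style. None of them is annotated as protein coding: *Mir99ahg* and *Mir22hg* are of the type processed transcript and the other hosts are of the type lincRNA.

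Their expression was measured in neural stem cells (NSCs) from FVB/N mice, comparing 4 wild-type (WT) samples with 3 *Smchd1*-null samples that carry the MommeD1 mutation. *Smchd1* encodes a chromatin protein of the structural maintenance of chromosomes family that is known for gene silencing, including on the inactive X chromosome. All cells were grown in proliferation medium with EGF and bFGF and had no other treatment. Polyadenylated RNA was read as unamplified cDNA on nanopore flow cells, with the DCS108 kit in batch 1 and the DCS109 kit in batch 2. Batch 1 held WT replicate 2 with *Smchd1*-null replicates 1 and 2, batch 2 held WT replicates 3 and 4 with *Smchd1*-null replicate 3, and WT replicate 1 was run in each. The labels do not say whether replicates came from separate animals or cultures, so the P-values below measure the spread between these samples, which may be technical.

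A microRNA host transcript is made by RNA polymerase II, and the nuclear enzyme Drosha with its partner Dgcr8 cuts the hairpin precursor out of it. Dicer1 then trims the hairpin to a mature microRNA of little more than 20 bases, which guides an Argonaute protein to messenger RNAs that pair with its seed, bases 2 to 8. In the developing brain miR-124 is the microRNA of neurons and miR-9 acts in both progenitors and neurons, while the microRNA cluster of *Mir17hg* is known for promoting proliferation. The sequencing read the polyadenylated host and not the mature microRNA, so a host level is not a measure of the microRNA made from it.

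The mature sequences of the hosts are shown because their seeds tell which hosts can make microRNAs with shared targets. Of the 14 hairpins annotated on the strand of a host, 11 matched a RefSeq entry on GRCm38.p6, with 21 mature sequences in all. The 12 listed here are the arms for which these microRNAs are best known, with the seed in capitals. *Mir124a-1*, *Mir124a-2* and *Mir3078* are named only. *Mir9-3hg* holds 1 hairpin.
miR-9-5p: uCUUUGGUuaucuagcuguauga
miR-9-3p: aUAAAGCUagauaaccgaaagu
*Mir99ahg* holds 3 hairpins, each with another seed.
miR-99a-5p: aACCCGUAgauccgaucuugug
let-7c-5p: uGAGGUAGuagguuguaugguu
miR-125b-5p: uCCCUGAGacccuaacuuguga
*Mir17hg* holds 6 hairpins.
miR-17-5p: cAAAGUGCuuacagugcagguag
miR-20a-5p: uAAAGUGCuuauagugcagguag
miR-18a-5p: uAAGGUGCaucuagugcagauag
miR-19a-3p: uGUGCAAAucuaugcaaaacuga
miR-19b-3p: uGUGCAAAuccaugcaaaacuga
miR-92a-3p: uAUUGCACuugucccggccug
*Mir22hg* holds 1 hairpin.
miR-22-3p: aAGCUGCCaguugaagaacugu

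Within *Mir17hg*, miR-17-5p and miR-20a-5p shared the seed AAAGUGC, and miR-19a-3p and miR-19b-3p shared the seed GUGCAAA. No seed was shared between hosts among these 21 mature sequences. They leave out miR-124, which *Mir124-2hg* and *Mir124a-1hg* both make, so these hosts do share a seed. Several mature sequences are also made at another place in the genome: miR-9 at *Mir9-1* and *Mir9-2*, let-7c at *Mirlet7c-2*, miR-125b at *Mir125b-1*, miR-19b at *Mir19b-2* and miR-92a at *Mir92-2*.

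The hosts differed in where the hairpin lies. *Mir17hg* (chromosome 14, 115042879 to 115046727, plus strand) has 1 annotated transcript of 2 exons, and all 6 hairpins lie in an exon, between 0.792 and 1.55 kb from the start. *Mir22hg* (chromosome 11, 75461539 to 75466676, plus strand) also carries its hairpin in an exon, in both of its transcripts. *Mir124a-1hg* (chromosome 14, 64587331 to 64593961, plus strand) has *Mir124a-1* and *Mir3078* in an exon of 1 of its 4 transcripts.

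In the other hosts the hairpin is mainly intronic, so that a spliced read of the host does not hold it. *Mir124-2hg* (chromosome 3, 17789921 to 17808970, plus strand) has *Mir124a-2* in an intron of 5 of its 7 transcripts and partly in an exon of 1. *Mir9-3hg* (chromosome 7, 79500026 to 79534403, plus strand) has *Mir9-3* in an intron of 4 of its 7 transcripts, and the other 3 do not span it. *Mir99ahg* (chromosome 16, 77236317 to 77773427, plus strand) is the longest of the hosts at 537 kb. Its hairpins *Mir99a*, *Mirlet7c-1* and *Mir125b-2* lie 363, 363 and 410 kb from the start, in an intron of 4 of 17 transcripts. A count of *Mir99ahg* therefore also holds transcripts that do not reach its microRNAs.

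**Figure D1:**
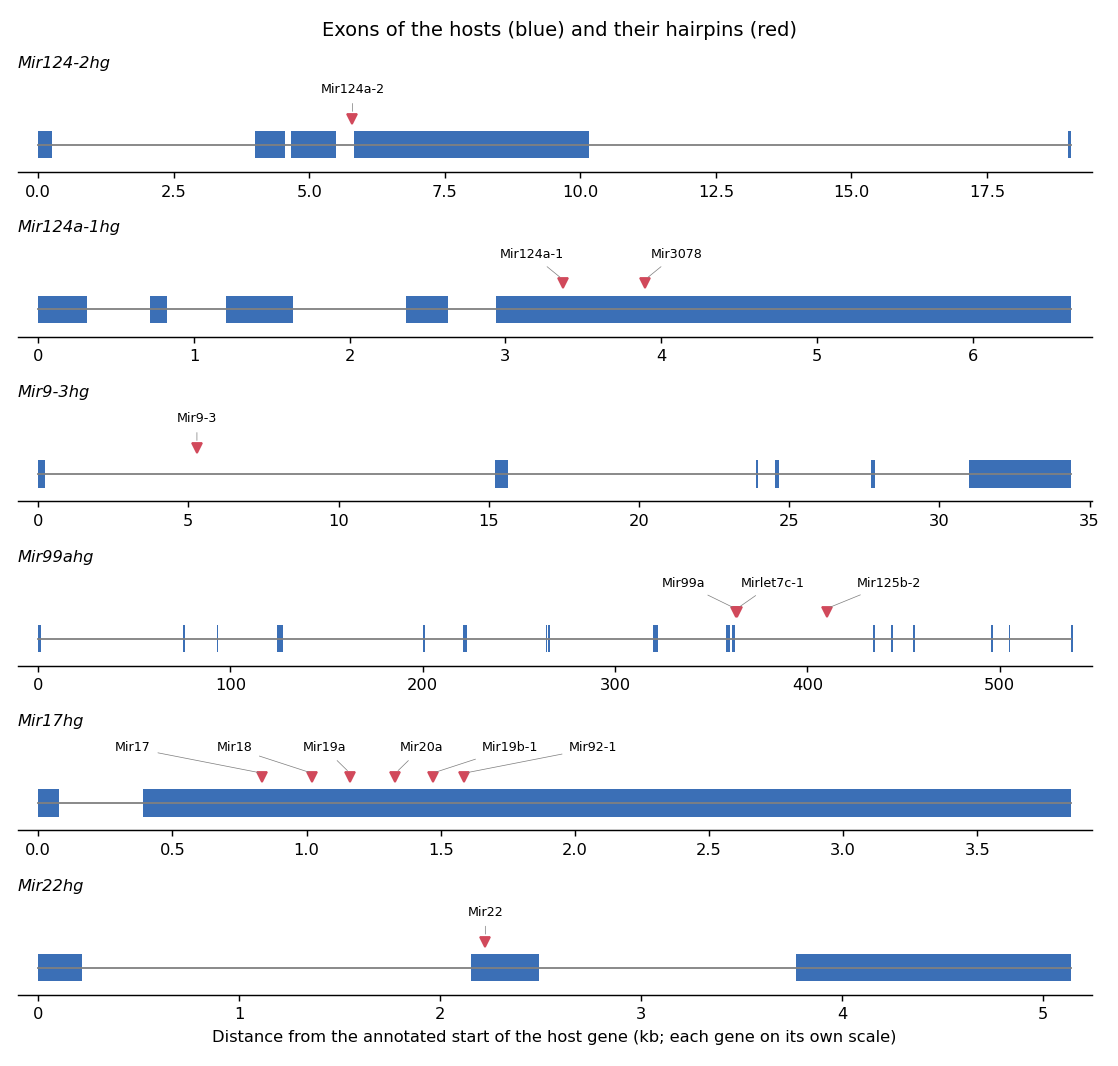
Annotated exons of each host (blue, all transcripts merged) and its microRNA hairpins (red triangles), with the distance from the host's start in kb on the x axis, each host on its own scale. The 6 hairpins of Mir17hg lie in its second exon, whereas those of Mir9-3hg and Mir99ahg lie between exons.

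Hairpins are counted as genes of their own in the deposited files, and no source states that strand was used in counting. The 10 hairpin genes that share bases with a host exon had 0 counts in all 7 libraries, which allows up to 3 counts in each, and the 4 that lie in introns had 9 counts in all. How a read over both a host exon and a hairpin was counted is not given in the sources used here. By default featureCounts leaves a read that overlaps more than 1 gene uncounted. Under that setting the counts of *Mir17hg*, *Mir22hg* and *Mir124a-1hg*, whose hairpins are exonic, would lack such reads and understate their level against hosts with intronic hairpins. *Mir124-2hg*, which shares 27 exon bases with *Mir124a-2*, could also lack reads there. *Mir22hg* shares 206 exon bases with *Tlcd2*, which had 14 counts in all libraries together.

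The 7 libraries held 2.74 to 7.74 M counts, and 3 counts, taken as the floor, are 0.399 to 1.13 counts per M counts (CPM) depending on the library. *Smchd1* itself had 66.9, 56.4, 74.7 and 55.7 CPM in WT replicates 1 to 4 and 17.3, 12.8 and 18.4 CPM in *Smchd1*-null replicates 1 to 3, so the level in every library followed its label. The NSC markers were abundant, with summed levels of 8990 to 13900 CPM in WT and 8540 to 10100 CPM in *Smchd1*-null samples, led by *Fabp7*, *Vim* and *Slc1a3*. The microglia markers summed to at most 2.22 CPM in any library.

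In WT cells the hosts spanned a wide range of levels. On the scale of CPM per kb of gene length, *Mir9-3hg* was highest with 7.11 ± 1.27 (SD, n = 4), followed by *Mir17hg* with 5.23 ± 0.825, *Mir22hg* with 4.95 ± 1.54 and *Mir124-2hg* with 2.31 ± 0.452. *Mir99ahg* had 0.476 ± 0.155 CPM per kb and *Mir124a-1hg* 0.202 ± 0.257 CPM per kb. *Mir9-3hg* was above *Mir17hg* in 4 of 4 WT samples, although the ranges of the 2 genes overlapped. *Mir17hg* and *Mir22hg* did not differ beyond their spread. *Mir124-2hg* stood apart from its neighbours in this order, below every WT value of *Mir22hg* and above every WT value of *Mir99ahg*. This order depends on the division by length: in CPM, *Mir124-2hg* with 13.9 ± 2.72 was above *Mir22hg* with 9.52 ± 2.96 in all 4 WT samples. *Mir9-3hg* and *Mir17hg* had the highest means on both scales. Among the 5680 long noncoding genes with a count, the WT mean per kb lay at the 98.5th percentile for *Mir9-3hg*, the 95.6th for *Mir124-2hg*, the 83.9th for *Mir99ahg* and the 69.7th for *Mir124a-1hg*.

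The comparison of WT with *Smchd1*-null cells asks which genes depend on *Smchd1*. *Mir124-2hg* was the host that changed: it fell to 28.7% of its WT level. *Mir124-2hg* had 11, 12.2, 15.5 and 16.8 CPM in WT replicates 1 to 4 and 5.63, 3.06 and 3.25 CPM in *Smchd1*-null replicates 1 to 3, from 45 to 98 counts in WT and 15 to 23 counts in *Smchd1*-null libraries. Every *Smchd1*-null value lay below every WT value. The means were 13.9 ± 2.72 CPM (SD, n = 4) and 3.98 ± 1.43 CPM (SD, n = 3), and the log2 fold change was -1.86 with an SE of 0.29 and a 95% confidence interval of -2.47 to -1.24 (limma, adjusted P-value 0.0368). It ranked as number 5 of 13305 genes by P-value.

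An adjusted P-value under 0.05 was reached by 1 of the 5 hosts tested, against 0.0902% of all genes (12 of 13305) or 0.0451% counting falls alone, and a lower level with no overlap between genotypes by 1 host, against 3.01% of all genes. At the more liberal 0.25 the count stayed at 1 host, against 1.08% of all genes, of which 0.609% were lower and 0.474% higher. Since the hosts were chosen with earlier results of these data known, these counts do not measure enrichment among microRNA hosts. *Mir124-2hg* was lower within each batch, with a difference of mean log-CPM of -1.46 in batch 1 and -2.17 in batch 2. Such differences, here and below, rest on a single library on 1 side and leave out WT replicate 1. The single library is WT replicate 2 in batch 1 and *Smchd1*-null replicate 3 in batch 2. Its fold change varied little over the 19 alternative fits, from -2.08 to -1.72, but the adjusted P-value ranged from 3.69e-04 (DESeq2) to 0.487. It was under 0.05 in 10 and under 0.25 in 17 of the 19 fits, and the fits above 0.25 were those without *Smchd1*-null replicate 1 (0.287) and without *Smchd1*-null replicate 2 (0.487). In bulk RNA, fewer cells with this transcript and less transcript per cell cannot be told apart.

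**Figure D2:**
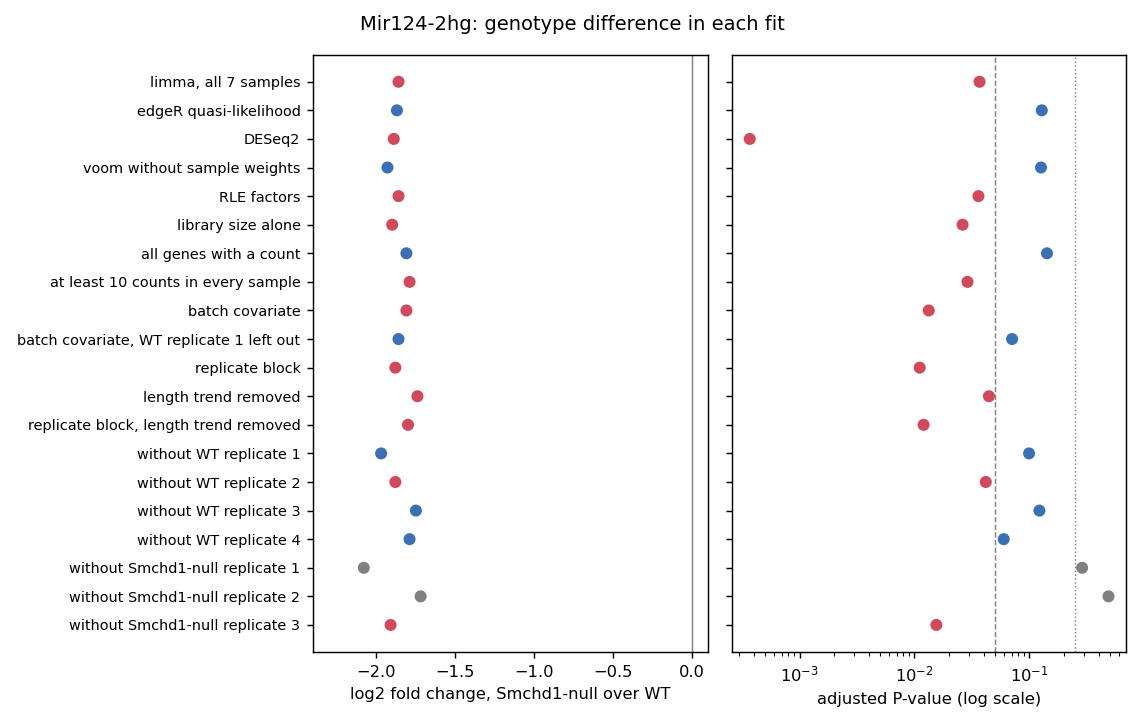
Genotype difference of Mir124-2hg in each fit, as the log2 fold change (left) and the adjusted P-value on a log axis (right), with dashed and dotted lines at 0.05 and 0.25. Red points are under 0.05, blue points between 0.05 and 0.25 and grey points above, and all fold changes lie between -2.08 and -1.72.

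The miR-124 hosts were then set side by side. *Mir124a-1hg*, which makes the same mature miR-124 from another locus, had 0, 0, 5 and 15 counts in WT replicates 1 to 4 and 5, 18 and 1 counts in *Smchd1*-null replicates 1 to 3. These are 0.0, 0.0, 1.31 and 2.57 CPM and 1.88, 2.40 and 0.216 CPM, so that the groups overlapped entirely and 3 of 7 libraries were under the floor of 3 counts. It did not pass the filter on low counts, and its log-CPM did not differ detectably (P = 0.514, exact permutation test over 35 assignments, two-sided, smallest possible P = 0.0286). The direction went up in batch 1 by 2.59 and down in batch 2, where the difference of mean log-CPM was -1.83. Summed over both hosts, miR-124 host RNA was 11, 12.2, 16.8 and 19.4 CPM in WT and 7.51, 5.46 and 3.46 CPM in *Smchd1*-null samples. *Mir124-2hg* made up 93.6 ± 7.87% of the level per kb of both hosts in WT and 71.1 ± 20.9% in *Smchd1*-null samples, given as a description. A further miR-124 locus, *Mir124a-3*, had no annotated host on its strand and is not part of these sums and shares.

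*Mir9-3hg* showed no detectable difference. Its WT samples had 38.6, 29.3, 30.9 and 25.4 CPM in the order of replicates 1 to 4, against 40.2, 34.7 and 25.3 CPM in *Smchd1*-null replicates 1 to 3. The genotypes overlapped, and the highest and the lowest values of all 7 samples were both *Smchd1*-null. The means were 31.1 ± 5.54 CPM and 33.4 ± 7.51 CPM, with a log2 fold change of 0.13, an SE of 0.18 and a 95% confidence interval of -0.25 to 0.51 (limma, adjusted P-value 0.75). The interval leaves out a change of the size seen for *Mir124-2hg*.

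*Mir17hg*, the host of the miR-17/92 cluster, also did not pass the test. Its values were 18.6, 14.9, 22.0 and 18.5 CPM in WT and 14.6, 14.6 and 18.6 CPM in *Smchd1*-null samples, and they overlapped. The log2 fold change was -0.31 with an SE of 0.19 and a 95% confidence interval of -0.72 to 0.09 (limma, adjusted P-value 0.449). Its levels followed the batch more closely than the genotype: the samples of batch 1 alone had 14.6 to 14.9 CPM, those of batch 2 alone 18.5 to 22.0 CPM and the sample in both batches 18.6 CPM. A fit with a term for batch gave a log2 fold change of -0.09.

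*Mir99ahg* had 9.28, 4.89, 4.98 and 8.06 CPM in WT and 2.63, 5.72 and 4.55 CPM in *Smchd1*-null samples, from 7 to 47 counts. The lowest value was *Smchd1*-null and the highest were WT, but the middle of the groups overlapped. The log2 fold change was -0.53 with an SE of 0.35 and a 95% confidence interval of -1.27 to 0.22 (limma, adjusted P-value 0.486).

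*Mir22hg* had 7.33, 8.22, 8.65 and 13.9 CPM in WT and 4.13, 9.05 and 6.71 CPM in *Smchd1*-null samples. The groups overlapped, with *Smchd1*-null replicate 2 above 3 of the 4 WT samples. The log2 fold change was -0.34 with an SE of 0.31 and a 95% confidence interval of -1.01 to 0.33 (limma, adjusted P-value 0.621). For *Mir99ahg* and *Mir22hg* these intervals are wide, and a fall of 1.5 times could not be told from no change at this depth. Of the 5 tested hosts, 4 had a log2 fold change below 0, as had 49.4% of all genes.

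**Figure D3:**
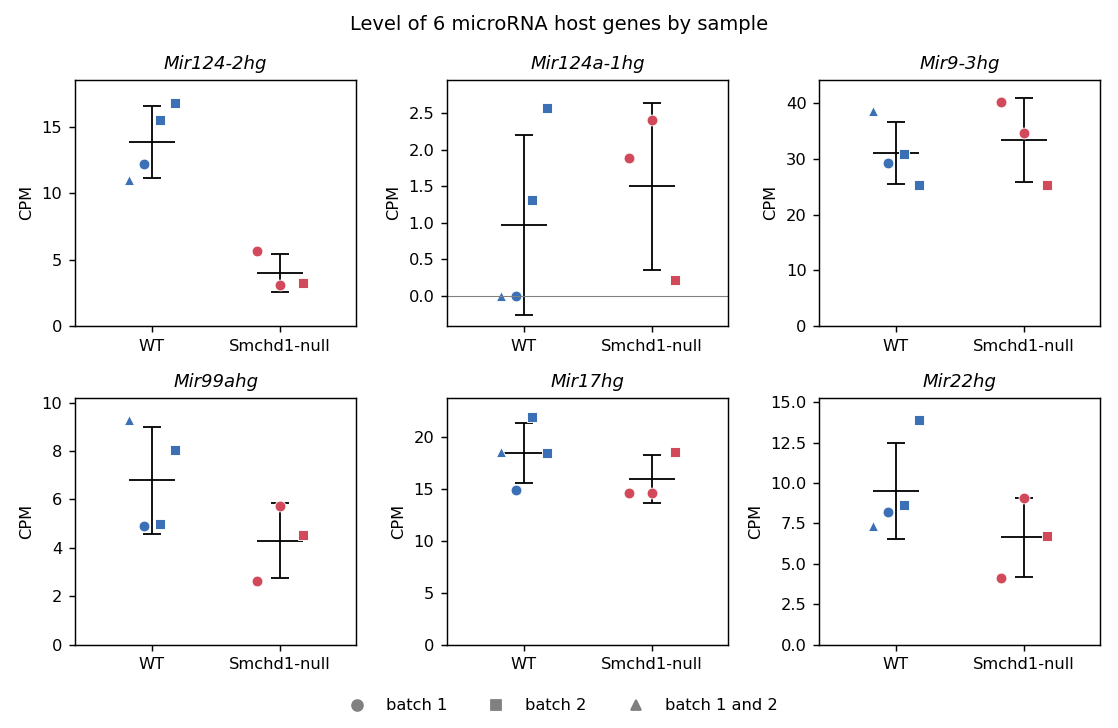
Level of each host in CPM (y axis) in the WT (blue) and Smchd1-null (red) samples, with the mean and SD in black and the batch given by the shape of the point. Mir124-2hg separates the genotypes, with 11 to 16.8 CPM in WT and 3.06 to 5.63 CPM in Smchd1-null samples, and the other 5 hosts overlap.

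The hosts did not share 1 pattern across the samples. Pearson's r of log-CPM between pairs of the 5 tested hosts ran from -0.61 (*Mir9-3hg* and *Mir22hg*) to 0.74 (*Mir99ahg* and *Mir22hg*) over the 7 samples, which share their library depth and batches. Among 11147 genes with a mean of at least 5 CPM, the genes most like *Mir124-2hg* over the 7 samples were the laminin receptor subunit *Itga6* (r = 0.96), the secreted factor *Metrnl* (r = 0.96), the F-box gene *Fbxo30* (r = 0.94), *Smchd1* itself (r = 0.94) and the zinc finger gene *Zfp408* (r = 0.93). Since *Mir124-2hg* separates the genotypes, genes chosen for likeness to it do so by choice. Of the 5, *Smchd1* alone had an adjusted P-value under 0.25. The genes most like *Mir9-3hg* were *L3mbtl3* and *Uspl1* (both r = 0.97), and those most like *Mir17hg* were *Slc4a2* and *Ganab* (both r = 0.99). For *Mir99ahg* they were *Ctsa* (r = 0.99) and *Tcf7l1* (r = 0.97), and for *Mir22hg* *Rab11fip5* (r = 0.99) and *Mertk* (r = 0.98).

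The nearest tested genes on either side of each host were read to see whether a neighbour moved with it. *Mir124-2hg* lies in a stretch with few expressed genes: *Ythdf3*, which encodes a reader of RNA methylation, lies 1570 kb before it, and *Gm5844* lies 200 kb after it. *Ythdf3* had 69.5 ± 12.2 CPM in WT and 59.6 ± 9.37 CPM in *Smchd1*-null samples, with a log2 fold change of -0.34 (limma, adjusted P-value 0.344). *Gm5844* had 14.2 ± 4.26 and 15.4 ± 2.30 CPM, with a log2 fold change of 0.02 (limma, adjusted P-value 0.974). Of the 12 neighbours of the 6 hosts, 0 had an adjusted P-value under 0.25 with limma, edgeR or DESeq2. Over all genes this was reached by 1.08% with limma, 0.0601% with edgeR and 32 genes with DESeq2. An unadjusted P-value under 0.05 with limma was found for 5 of the neighbours and for 13.9% of all genes. *Kif13b*, a kinesin gene 53.3 kb after *Mir124a-1hg*, had the largest difference among them with a log2 fold change of -0.52 (limma, adjusted P-value 0.347). *Gm35040*, which lies 1.64 kb after *Mir9-3hg*, had 19.1 ± 3.78 and 22.6 ± 4.92 CPM, with a log2 fold change of 0.25 (limma, adjusted P-value 0.562).

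Other genes that hold a copy of the same hairpins give the setting of these hosts. They were looked up by position and strand, after the values of the 6 hosts were known. For miR-9, most of the host RNA came from other loci: *Gm3764*, which holds *Mir9-1*, had 546 ± 89.5 CPM in WT and 528 ± 81.0 CPM in *Smchd1*-null samples, and *C130071C03Rik*, which holds *Mir9-2*, had 215 ± 79.4 and 170 ± 56.0 CPM. *Mir9-3hg* made up 5.10 ± 0.691% of the miR-9 host level per kb in WT and 5.93 ± 1.09% in *Smchd1*-null samples. The log2 fold changes were 0.02 for *Gm3764* (limma, adjusted P-value 0.966) and -0.45 for *C130071C03Rik* (limma, adjusted P-value 0.376).

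For miR-125b, *3110039I08Rik* spans *Mir125b-1*, as does *Gm28119*, a sense intronic gene of 298 bases within it. *Mir99ahg* made up 4.91 ± 3.21% of the level per kb of these 3 genes in WT, *3110039I08Rik* 25.5 ± 13.6% and *Gm28119* 69.6 ± 16.6%, the last from 4 to 38 counts over its short length. Without division by length the order was another, with WT means of 60.1 CPM for *3110039I08Rik*, 6.8 CPM for *Mir99ahg* and 3.07 CPM for *Gm28119*. *Gm28119* had 1.22, 0.888, 3.67 and 6.52 CPM in WT and 0.751, 0.399 and 2.38 CPM in *Smchd1*-null samples, which overlapped, with a log2 fold change of -1.62 and an SE of 0.64 (limma, adjusted P-value 0.322). Its samples of batch 1 alone had 0.399 to 0.888 CPM and those of batch 2 alone 2.38 to 6.52 CPM. Within the batches, the difference of its mean log-CPM was -0.42 in batch 1 and -0.93 in batch 2. *3110039I08Rik* had 64.0, 48.6, 59.8 and 68.1 CPM in WT replicates 1 to 4 and 34.5, 35.1 and 42.0 CPM in *Smchd1*-null replicates 1 to 3. Every *Smchd1*-null value lay below every WT value, and the log2 fold change was -0.73 with an SE of 0.14 (limma, adjusted P-value 0.0963). This passed 0.25 but not 0.05, was under 0.25 in 10 of 19 alternative fits, and had an adjusted P-value of 0.524 with edgeR. *Lncppara*, which holds *Mirlet7c-2*, had 1.11 ± 0.583 and 1.20 ± 0.362 CPM and was not tested.

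Of the 4 other genes named in the Mir...hg style, *Mir670hg* was the 1 that passed the filter. It had 6.10, 6.0, 6.55 and 10.3 CPM in WT and 4.50, 10.5 and 4.55 CPM in *Smchd1*-null samples, with a log2 fold change of 0.11 (limma, adjusted P-value 0.906). The blood cell hosts *Mir142hg* and *Mir155hg* had 0 and 2 counts in all libraries together.

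**Figure D4:**
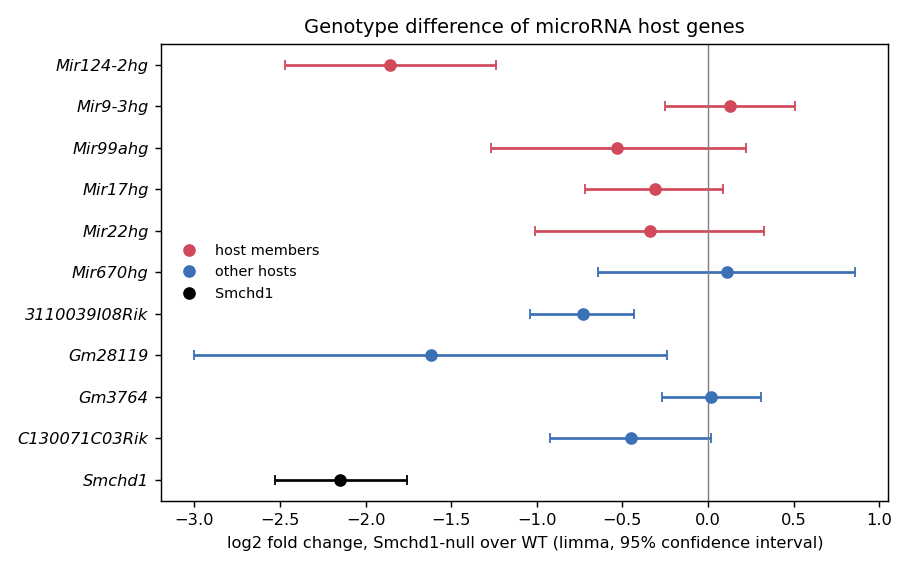
Log2 fold change of Smchd1-null over WT (x axis) with its 95% confidence interval from limma, for the 5 tested hosts (red), 5 other microRNA hosts (blue) and Smchd1 (black). The intervals, which are not adjusted for the number of genes, lie below 0 for Mir124-2hg (-1.86), 3110039I08Rik (-0.73), Gm28119 (-1.62) and Smchd1 (-2.15), and include 0 for the others. Gm28119 overlapped between genotypes and had a limma adjusted P-value of 0.322.

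Beside the hosts, genes of the microRNA pathway were read from 12 lists. None of these held a gene with a limma adjusted P-value under 0.05, which 0.0902% of all genes had. With edgeR and with DESeq2, 0 genes of the lists passed 0.25, against 0.0601% of all genes with edgeR and 32 genes in all with DESeq2. The limma counts of list genes past 0.25 given below stand against 1.08% of all genes. At an unadjusted P-value under 0.05 in limma, which 13.9% of all genes had, stood 5 of 33 biogenesis genes, 1 of 21 protein-coding hosts, 5 of 22 miR-124 targets, 4 of 14 miR-9 targets, 4 of 15 miR-17/92 targets and 5 of 13 targets of miR-22, miR-99a and let-7. The same count was 3 of 14 for regulators of the hosts, 4 of 12 for NSC markers, 3 of 12 for neuron markers, 2 of 6 for astrocyte markers and 1 of 8 for oligodendrocyte markers. Of 33 tested genes of microRNA biogenesis and function, 1 was lower and 0 were higher at 0.25, against 0.609% and 0.474% of all genes. Their median log2 fold change was -0.09, against 0.0 over all tested genes. The gene past 0.25 was *Tnrc6b*, which encodes a partner of the Argonaute proteins in silencing, with 50.9 ± 7.58 CPM in WT and 35.9 ± 3.25 CPM in *Smchd1*-null samples and a log2 fold change of -0.55 (limma, adjusted P-value 0.233). It was under 0.25 in 5 of 19 alternative fits. *Drosha* had 46.3 ± 2.85 and 45.5 ± 0.451 CPM with a log2 fold change of -0.03, and *Dicer1* had a log2 fold change of -0.01. Neither gene of a cleavage enzyme passed 0.25. The most abundant members were *Hsp90ab1*, *Ran* and *Ddx5*, with log2 fold changes of 0.11, 0.15 and -0.05.

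Protein-coding genes can also be hosts, and 24 of the 25 listed held an annotated microRNA on their own strand, *Dalrd3* being the exception. Of the 21 tested, 0 passed 0.25 in limma (lowest adjusted P-value 0.288), and the median log2 fold change was -0.15. The most abundant were *Smc4*, which hosts *Mir15b* and *Mir16-2* and had 237 ± 29.8 and 234 ± 7.97 CPM, *Srebf2*, which hosts *Mir33*, and *Copz1*, which hosts *Mir148b*. Their log2 fold changes were -0.06, -0.06 and -0.02.

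Messenger RNAs known as targets were read next, by the microRNA that pairs with them. Of 22 tested targets of miR-124, 0 were higher and 1 was lower at 0.25, with a median log2 fold change of -0.09. The lower gene was *Anxa5*, an annexin that binds phosphatidylserine, with 52.4 ± 10.1 and 35 ± 3.08 CPM and a log2 fold change of -0.62 (limma, adjusted P-value 0.233), under 0.25 in 6 of 19 alternative fits. *Vim*, *Itgb1* and *Sox9*, the most abundant of these targets, had log2 fold changes of 0.14, -0.17 and -0.24. *Ptbp1*, the splicing repressor that is the best known miR-124 target in neurons, had 13.4 ± 7.17 and 8.71 ± 5.96 CPM. Its groups overlapped, and the log2 fold change was -1.04 (limma, adjusted P-value 0.345). The difference of its mean log-CPM was 0.52 in batch 1 and -0.14 in batch 2. Of 14 tested targets of miR-9, 0 passed 0.25 in limma (lowest adjusted P-value 0.28), with a median of -0.07.

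For the targets of the miR-17/92 cluster, 1 of 15 tested genes was lower at 0.25 and 0 were higher, with a median log2 fold change of -0.05. It was the Akt phosphatase gene *Phlpp1* with a log2 fold change of -0.66 (limma, adjusted P-value 0.233, under 0.25 in 5 of 19 alternative fits). Of the 3 most abundant targets, *Ccnd2* and *Ccnd1*, which encode D-type cyclins, had log2 fold changes of -0.01 and 0.07. The other, *Cdkn1a*, a brake on the cell cycle, had 524 ± 133 and 721 ± 181 CPM with a log2 fold change of 0.59 (limma, adjusted P-value 0.275). Its groups overlapped, and the difference of its mean log-CPM was 0.19 in batch 1 and 0.14 in batch 2. For the targets of miR-22, miR-99a and let-7, 1 of 13 tested genes was lower at 0.25, the growth factor receptor gene *Fgfr3* with 101 ± 17.8 and 69.8 ± 9.08 CPM and a log2 fold change of -0.51 (limma, adjusted P-value 0.233, under 0.25 in 5 of 19 alternative fits). The median of that list was -0.15. Each list of targets thus held 0 or 1 gene past 0.25, against 1.08% of all genes. With so few genes per list, nothing particular to the lists was read from these counts.

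**Figure D5:**
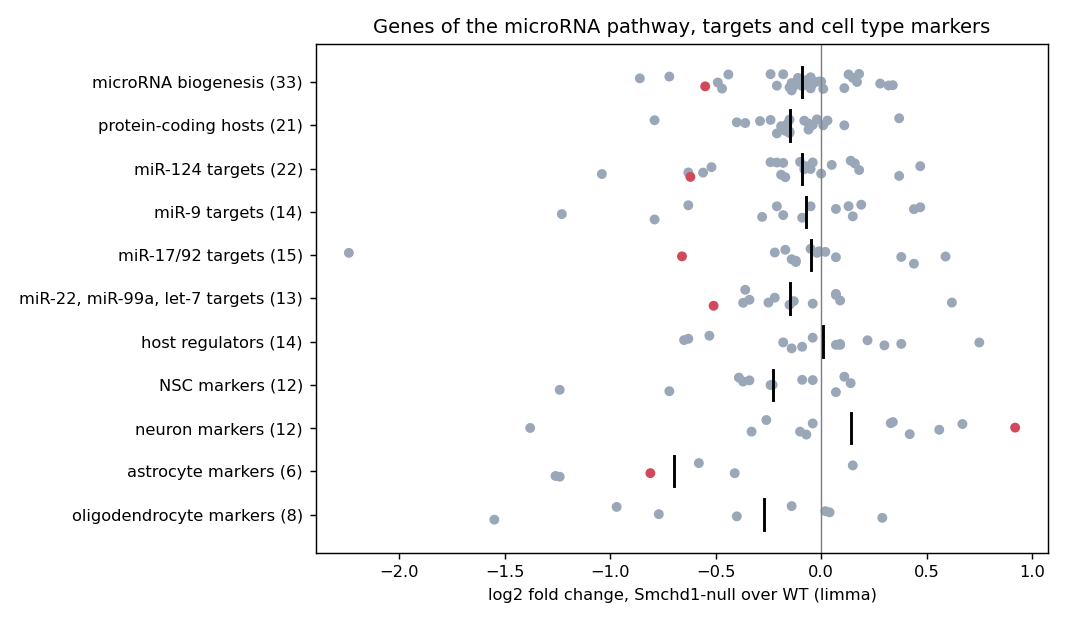
Log2 fold change of Smchd1-null over WT (x axis, limma) for each tested gene of the lists, with the number tested in parentheses, red points past an adjusted P-value of 0.25 and black bars at the list medians. Each list holds at most 1 red point, and the medians of the microRNA lists lie between -0.15 and 0.01.

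Known regulators of the hosts were also present in the RNA. *Rest*, the repressor that keeps neuronal genes including the miR-124 genes off outside neurons, had a log2 fold change of -0.63 (limma, adjusted P-value 0.28). Its levels were 28.0 ± 3.53 CPM in WT and 20.8 ± 7.12 CPM in *Smchd1*-null samples, and the groups overlapped. The difference of its mean log-CPM was -0.44 in batch 1 and -0.02 in batch 2. *Myc*, an activator of *Mir17hg*, had 135 ± 11.1 and 145 ± 13.8 CPM and a log2 fold change of 0.09 (limma, adjusted P-value 0.75). Of 14 tested regulators, 0 passed 0.25 in limma, and the median was 0.01.

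Because miR-124 is a neuronal microRNA, the markers of other cell types were read beside the lower *Mir124-2hg* level. The 18 neuron markers summed to 1020 to 1120 CPM in WT and 1120 to 1200 CPM in *Smchd1*-null samples, a sum carried mainly by *Gap43*, *Map2* and *Sox11* with WT means of 363, 350 and 150 CPM. Of the 12 neuron markers tested, 1 was higher at 0.25, *Stmn3* with 53.4 ± 15.7 and 89.1 ± 18.8 CPM and a log2 fold change of 0.92 (limma, adjusted P-value 0.126, under 0.25 in 10 of 19 alternative fits), and the median was 0.14, with 6 markers above and 6 below 0. *Dcx*, a marker of young neurons, had 12, 8.66, 3.15 and 36.2 CPM in WT and 3.0, 3.06 and 4.55 CPM in *Smchd1*-null samples, with a log2 fold change of -1.38 (limma, adjusted P-value 0.323). Its groups overlapped, and WT replicate 4 was the highest. *Neurod6* had 0 counts in all libraries. The 8 astrocyte markers summed to 432 to 1150 CPM in WT and 335 to 556 CPM in *Smchd1*-null samples, with a median log2 fold change of -0.7 over 6 tested. Among them *Aldoc*, a glycolytic enzyme gene, was lower at 0.25 with a log2 fold change of -0.81 (limma, adjusted P-value 0.233, under 0.25 in 6 of 19 alternative fits). The groups of *Aldoc* overlapped, and WT replicate 4 was the highest with 833 CPM, against 298 to 403 CPM in the other WT samples. The same sample was the highest for *S100b* with 65.0 CPM and for *Slc1a2* with 65.8 CPM. The 8 tested oligodendrocyte markers had a median of -0.27, with 0 past 0.25 in limma, and the 12 NSC markers had a median of -0.23, with 0 past 0.25 in limma. The part of these markers in the level of *Mir124-2hg* was not tested.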

How the data were processed

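The deposited files give raw whole-number counts of reads per gene for each sample, and gene lengths. The authors obtained the counts by base-calling with Guppy, alignment to mm10 with minimap2 version 2.17 and assignment of primary alignments to Gencode M23 genes with featureCounts in long-read mode, and summed both runs of WT replicate 1. A read of a near-identical copy is counted wherever its primary alignment falls.

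Symbols, types, exons and 1-based coordinates came from Gencode M21 (GRCm38) with ID versions ignored, and 55154 of 55335 IDs matched. The 6 hosts and the 12 gene lists were chosen with earlier results of these data known. Named genes were the hosts, *Smchd1*, other Mir...hg genes and nearest neighbours that passed the filter, the 3 most abundant genes and those past 0.25 in each list, and the genes most correlated with a tested host. Named outside this rule, after their values were seen, were the other hosts of the same hairpins (*Gm3764*, *C130071C03Rik*, *3110039I08Rik*, *Gm28119*, *Lncppara*), *Mir142hg*, *Mir155hg*, *Tlcd2*, *Drosha*, *Dicer1*, *Dalrd3*, *Dcx*, *Neurod6*, *Ptbp1* and *Rest*. The lists' older symbols *Zcchc11*, *Zcchc6* and *Ctgf* were read as *Tut4*, *Tut7* and *Ccn2*.

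Genes were filtered with edgeR's filterByExpr (13305 kept of 36857 with a count), scaled by TMM and tested with limma's voomWithQualityWeights, genotype as the only term. Tests were two-sided, and P-values were adjusted by Benjamini and Hochberg over all 13305 genes. Thresholds were 0.05 and 0.25. Fold changes are *Smchd1*-null over WT. CPM are counts per M of the library size after TMM scaling, and a prior count of 2 was added for log-CPM. *Mir124a-1hg* failed the filter and was compared by an exact permutation test of log-CPM. The scripts were tested on simulated data. Results were recomputed with DESeq2, the quasi-likelihood test of edgeR, other weights, scaling and filters, batch, replicate number and length terms, and each sample left out. Software was R 4.3.3, limma 3.58.1, edgeR 4.0.16, DESeq2 1.42.0 and Python 3.11.15. Libraries held 2.74 to 7.74 M counts, and floors cover counting error only.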

Additional observations from a re-analysis of the deposited data

How the results depend on the processing

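*Mir124-2hg* kept its direction in 19 of 19 alternatives, and its adjusted P-value rose above 0.05 with edgeR (log2 fold change -1.87, adjusted P-value 0.128), without sample weights (-1.93, 0.126), with all genes with a count (-1.81, 0.142) and with a batch covariate without WT replicate 1 (-1.86, 0.0706), so that 0 instead of 1 host gene passed 0.05 in these fits. Leaving out 1 sample gave -2.08 to -1.72 and 0 to 1 host genes past 0.05 and past 0.25; the adjusted P-value was 0.0992, 0.122 and 0.0597 without WT replicates 1, 3 and 4. The log2 fold change of *Mir9-3hg* turned to -0.07 without *Smchd1*-null replicate 1 and to -0.03 without *Smchd1*-null replicate 2. *Mir99ahg*, *Mir17hg* and *Mir22hg* stayed below 0 and above an adjusted P-value of 0.25 in all their fits, with ranges of -0.78 to -0.16, -0.40 to -0.08 and -0.65 to -0.14. *Mir99ahg* and *Mir124a-1hg* had under 10 counts in a sample and gave no value under that filter. *Mir124a-1hg* could be fitted in 2 alternatives, with 1.30 and 1.51.

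Counts over all genes moved more. At 0.05 (12 genes) they were 1 with edgeR, 1 without sample weights, 2 with all genes, 19 with the batch covariate, 5 with it and without WT replicate 1, and 1 to 161 when 1 sample was left out. At 0.25 (144 genes) they were 8 with edgeR, 32 with DESeq2, 10 without sample weights, 22 with all genes, 346 with a minimum of 10 counts in each sample, 74 and 31 with the batch covariate with and without WT replicate 1, 74 with the length trend removed, and 1 to 3153 when 1 sample was left out, the extremes being without *Smchd1*-null replicate 1 and without *Smchd1*-null replicate 3. The causes were not tested. Samples share a replicate number only: deviations of same-numbered samples correlated at -0.0378, 0.363 and 0.094, and 1 of 3 *Smchd1*-null samples correlated best with its own number. With the replicate block, 23 genes passed 0.05 and 129 passed 0.25, 44 passed 0.05 with the block and the length trend removed, and *Mir124-2hg* had -1.88 (adjusted P-value 0.0111). With 15 to 23 counts of *Mir124-2hg* per *Smchd1*-null library and under 20 of *Mir124a-1hg* in every library, depth limits what these hosts can show.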

Other observations

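The hosts of miR-9 differed by sequencing batch, a pattern noticed in the data and not tested. *C130071C03Rik* had 121 to 140 CPM in the 3 samples of batch 1 alone, 182 CPM in the sample of both batches and 234 to 302 CPM in the 3 samples of batch 2 alone, whereas *Gm3764* had 573 to 611, 635 and 434 to 482 CPM in the same order. *Mir9-3hg* had 29.3 to 40.2, 38.6 and 25.3 to 30.9 CPM, which overlapped. Each batch held both genotypes, and the library kit changed between the batches.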
